A study of Sus scrofa and Bos taurus with 31 samples.

Results

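The collagen genes of the pig were examined for open chromatin in 8 tissues. They were all protein-coding genes on chromosomes 1 to 18 of the RefSeq annotation of Sscrofa11.1 whose symbol is COL, a number, A and a number, and 40 of the 18725 protein-coding genes on these chromosomes met this rule. Of the 40, 11 encode fibrillar collagens, 6 encode collagens of basement membranes and 23 encode other collagens. COL4A5 and COL4A6 on chromosome X and COL6A2 on an unplaced scaffold did not meet it.

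The study profiled chromatin accessibility by ATAC-seq (a transposase inserts adapters where DNA is free of nucleosomes), and the 16 pig libraries were used here. They come from lung, adipose, skeletal muscle, liver, spleen, cerebellum, cerebral cortex and hypothalamus, each taken from the same 2 animals, P348 and P350. Both were castrated Yorkshire males from 1 litter, slaughtered at an age of 6 months, and neither received a treatment that the labels name. A tissue is therefore represented by 2 related animals of 1 sex, and each library comes from the nuclei of a whole tissue in which every cell type contributes. Lung, adipose and skeletal muscle (6 libraries) were compared with liver, spleen and the 3 brain regions (10 libraries).

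Collagens are triple helices of 3 chains. Fibrillar collagens, with types I, II, III, V, XI, XXIV and XXVII, build or regulate the fibrils that give connective tissue its strength. Type IV collagen forms the sheet-like network of basement membranes under epithelia and endothelia and around muscle fibres and fat cells, and types XV and XVIII are attached to that sheet. Among the others, FACIT collagens decorate fibrils, type VI forms beaded filaments around cells, types VIII and X form networks, type VII anchors epithelium to the dermis, and types XIII, XVII, XXIII and XXV span the cell membrane. Fibroblasts and related mesenchymal cells are the main source of fibrillar collagens.

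The level of a gene is the number of bases under peaks in the gene and 10 kb on each side, per Mb of all bases under peaks in that library. It describes how much of a library's open chromatin lies there and is no measure of RNA. Fewer cells of a type and less open chromatin per cell cannot be told apart in such bulk samples. The 16 peak lists held from 99960 to 217308 peaks covering from 64.1 to 156 Mb, and they carry no read depth. The read numbers that the study lists were not used here. The windows of 14 members also hold the start of another protein-coding gene, COL8A2 and COL5A2 among them, and peaks there count for the member too. Windows of neighbours share bases at COL4A1 and COL4A2, COL4A3 and COL4A4, COL9A1 and COL19A1 (1098 bp apart) and COL3A1 and COL5A2 (16177 bp apart). The cerebellum library of P348 stood apart, with the longest list of peaks, the lowest level of 16 of the 40 genes and a start site peak at 25 of them, against 27 to 35 in the other libraries. Tissue identity was visible but incomplete, since 11 of 24 marker genes of the 8 tissues had their highest level in their own tissue. The adipose markers were highest elsewhere, ADIPOQ and PLIN1 in spleen and LEP in liver. Of the lung markers, SFTPB was highest in lung, SFTPC in skeletal muscle and AGER in spleen. ACTN3, CKM and MYOD1 of skeletal muscle were highest there, as were 34.1% of all genes. Of 8 fibroblast markers, 2 were called in lung, adipose and skeletal muscle, both higher (THY1 and TWIST2, log2 differences 0.82 and 0.89). The summed level of the 8 ran from 196 to 376 there and from 155 to 262 in the other 10 libraries. PRRX1 alone had a mean level of 128 in skeletal muscle, against 25.7 in lung and 35.5 in adipose. DCN and LUM had -0.37 and -0.44 without a call, and the median of the 8 was 0.07, beside 0.21 for all genes. Of 5 endothelial markers 1 was higher and 1 lower (summed level 141 to 314 against 165 to 323), of 6 smooth muscle and pericyte markers 2 were higher and 1 lower (306 to 394 against 139 to 406), and of 5 chondrocyte markers limma called 0 (110.4 to 203 against 58.7 to 184). The medians of the endothelial, the smooth muscle and pericyte, and the chondrocyte markers were 0.04, 0.29 and 0.22. These counts of calls should be read beside the shares of all genes called, given with the collagen genes below. None of these marker genes was at 0 in every library, and the part of cell composition in the results was not tested.

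Collagen genes were called in both directions, at shares close to those of all genes. In lung, adipose and skeletal muscle together, 7 of 40 were higher (COL6A3, COL21A1, COL20A1, COL8A2, COL4A1, COL5A1 and COL15A1) and 4 were lower (COL25A1, COL6A5, COL9A1 and COL11A1), by limma with an adjusted p below 0.05 over 18340 genes tested. All 40 passed the filter of peak bases in at least 2 libraries. The share of members called higher was 17.5%, beside 20% of all genes, and the share called lower was 10.0%, beside 7.16%. The median log2 difference was 0.26 over the 40 members and 0.21 over all genes, so that every difference below should be read against a general shift of that size. When each library was centred on its own median gene, 6 collagen genes were higher and 7 lower, beside 7.93% and 12.9% of all genes. With peaks of q below 0.0001 only, 2 genes were higher (COL15A1 and COL7A1), beside 6.48% of all genes, and 4 lower (COL9A1, COL4A4, COL10A1 and COL26A1), beside 6.70%, so that of the 11 genes COL15A1 and COL9A1 alone kept their call. The log2 differences of the genes that lost theirs included 1.17 for COL6A3, 0.85 for COL5A1, 0.79 for COL4A1, -1.24 for COL25A1 and -1.0 for COL11A1. Without skeletal muscle limma called 1 gene higher, COL21A1, beside 2.52% of all genes, and 0 lower, beside 0.791%, with 11 and 1 at an unadjusted p below 0.05. Without the brain tissues it called 5 higher (COL15A1, COL21A1, COL4A3, COL5A1 and COL6A3), beside 2.88%, and 0 lower, beside 4.72%, with 12 and 3 at an unadjusted p below 0.05. The test uses the spread between the animals within a tissue and so describes these tissues. With each tissue taken as 1 value, limma called 0 of the 40 in either direction, as it did of all genes, and 7 higher and 2 lower had an unadjusted p below 0.05. The shares of all genes at an unadjusted p below 0.05 are not given for these 3 settings. In the main fit 13 collagen genes were higher at that limit, beside 31.1% of all genes, and 6 lower, beside 10.6%.

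**Figure D1:**
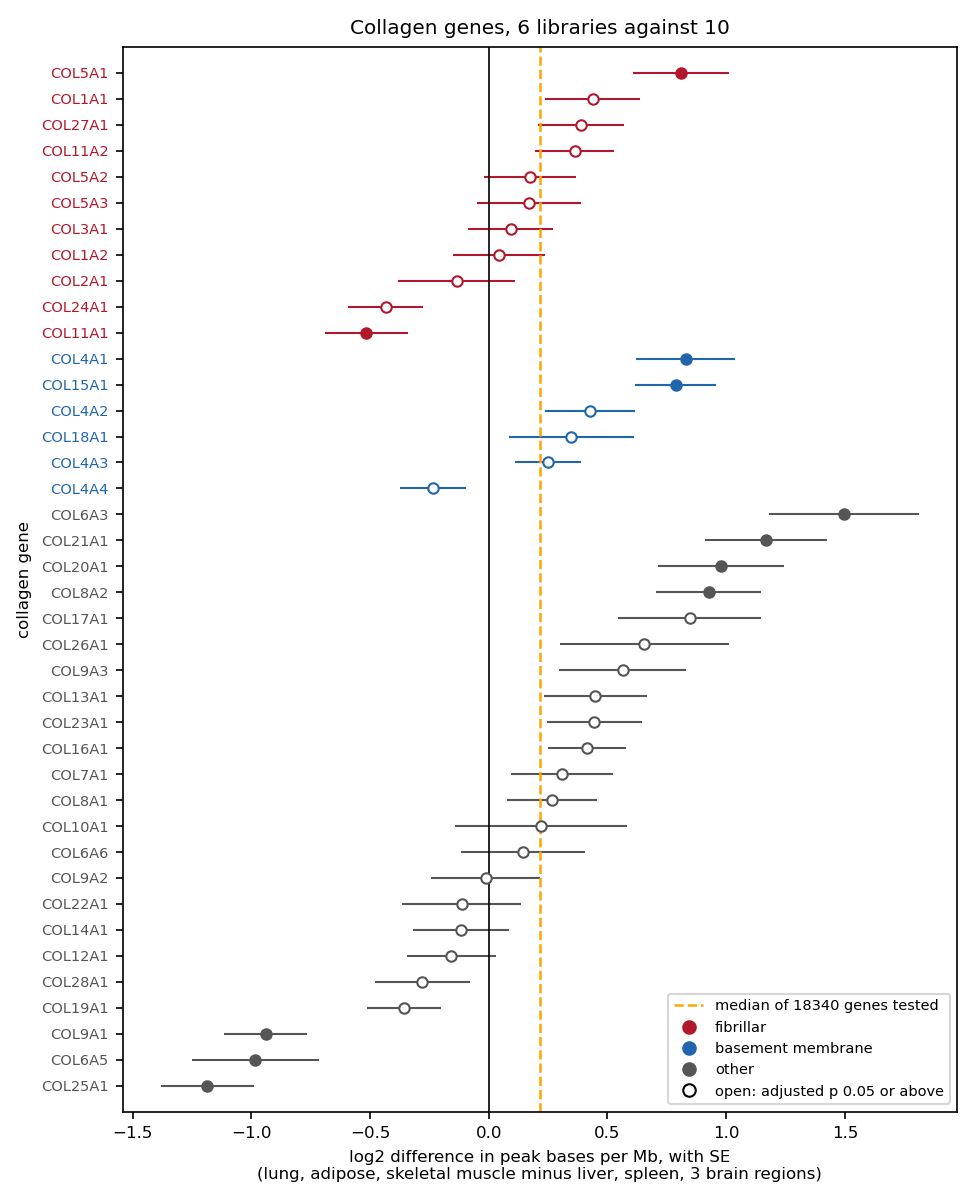
Log2 difference in level for each of the 40 collagen genes, lung, adipose and skeletal muscle minus the other 5 tissues, on the horizontal axis, with bars of 1 SE from limma over 16 libraries. Filled points passed an adjusted p of 0.05, colours give the class, and the dashed line marks the median of 18340 genes, 0.21; the points run from -1.19 for COL25A1 to 1.5 for COL6A3.

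Among the 11 fibrillar genes, 1 was higher and 1 lower, and their median log2 difference of 0.17 was below that of all genes. This order turned between the animals, with 0.26 beside 0.19 for all genes in P348 and 0.04 beside 0.23 in P350. COL5A1, whose chain limits the thickness of type I fibrils, lies on chromosome 1 from 273934219 to 274083264. Its level in P348 and P350 was 117 and 113 in lung, 109 and 139 in adipose and 148 and 173 in skeletal muscle. In the other tissues it was 75 and 92.5 in liver, 61.8 and 70.2 in spleen, 25.1 and 63.7 in cerebellum, 132 and 96.4 in cerebral cortex and 112 and 55.7 in hypothalamus. The groups overlapped, since cortex of P348 lay above both lung libraries and hypothalamus of P348 above adipose of P348. The means were 133 ± 25.0 (SD, n = 6) and 78.4 ± 30.6 (SD, n = 10), a log2 difference of 0.81 with an SE of 0.20 and an adjusted p of 0.012.

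COL11A1, a chain of the fibrils of cartilage, was the lower one. It had levels of 30.8 and 15.8 in lung, 45.2 and 29.3 in adipose and 12.8 and 23.4 in skeletal muscle of P348 and P350. Liver (31.5 and 29.0), spleen (30.4 and 26.3) and cortex (27.4 and 29.4) lay within that range, while cerebellum (70.2 and 48.5) and hypothalamus (51.5 and 44.4) were mostly above it. The log2 difference was -0.51 with an SE of 0.17 and an adjusted p of 0.043. Without the cerebellum library of P348 the adjusted p was 0.071. COL24A1, a fibrillar collagen of developing bone, was next with a log2 difference of -0.43 and an adjusted p of 0.056. It stood at 138 and 76.4 in skeletal muscle, below every other library, against 243 and 252 in lung, 320 and 352 in adipose, 281 and 307 in liver, 290 and 208 in spleen, 387 and 414 in cerebellum, 179 and 183 in cortex and 382 and 271 in hypothalamus.

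COL1A1, COL1A2, COL3A1 and COL2A1, the genes of the most abundant collagens, did not pass the test. COL1A1, the major chain of type I collagen in skin, bone and tendon, had levels of 39.5 and 31.4 in lung, 39.01 and 47.7 in adipose and 46.9 and 60.3 in skeletal muscle of P348 and P350. In the other tissues it had 35.4 and 29.4 in liver, 42.3 and 48.2 in spleen, 8.55 and 32.9 in cerebellum, 43.6 and 39.8 in cortex and 21.1 and 27.7 in hypothalamus. Its means of 44.1 ± 9.90 (SD, n = 6) and 32.9 ± 11.8 (SD, n = 10) gave a log2 difference of 0.44 with an SE of 0.20 and an adjusted p of 0.11. The groups overlapped, with the spleen of both animals as high as adipose. COL1A1 passed with windows of 50 kb (0.71, adjusted p 0.0076), with lists of equal length (0.78, adjusted p 0.049) and without the cerebellum library of P350 (0.59, adjusted p 0.0052).

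COL1A2, the partner chain of COL1A1 in the type I helix, had 37.0 and 27.2 in lung, 59.4 and 28.6 in adipose and 23.4 and 29.2 in skeletal muscle. Its levels elsewhere were 32.6 and 31.0 in liver, 39.4 and 42.7 in spleen, 42.2 and 35.9 in cerebellum, 27.9 and 16.7 in cortex and 40.3 and 18.6 in hypothalamus. The difference of 0.04 with an SE of 0.19 and an adjusted p of 0.88 had no stable sign. Over the 8 tissue means its Pearson correlation with COL1A1 was -0.19, although both chains are needed for the usual helix. That value is a description over 8 points, which share libraries with their depth and composition.

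COL3A1, the chain of the thin fibrils of vessels, gut and other pliable tissue, was among the least open for its length, with 0.193 per kb of window (the level divided by window length, mean of 16 libraries) against 0.974 for COL1A1. Its level was 10.9 and 4.59 in lung, 12.4 and 10.9 in adipose, 13.04 and 19.02 in skeletal muscle, 13.03 and 9.95 in liver, 6.41 and 11.3 in spleen, 22.6 and 10.5 in cerebellum, 3.24 and 5.17 in cortex and 13.7 and 14.8 in hypothalamus. The log2 difference was 0.09 with an SE of 0.18 and an adjusted p of 0.72. COL2A1, the main collagen of cartilage, had 33.8 and 38.6 in lung, 26.6 and 13.96 in adipose, 41.6 and 27.8 in skeletal muscle, 14.8 and 35.7 in liver, 43.4 and 34.9 in spleen, 19.5 and 53.1 in cerebellum, 46.7 and 19.9 in cortex and 35.2 and 41.6 in hypothalamus. Its difference of -0.14 had an SE of 0.24 and an adjusted p of 0.70. The remaining fibrillar genes, COL27A1, COL11A2, COL5A2 and COL5A3, had log2 differences from 0.17 to 0.39 and adjusted p from 0.12 to 0.58.

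**Figure D2:**
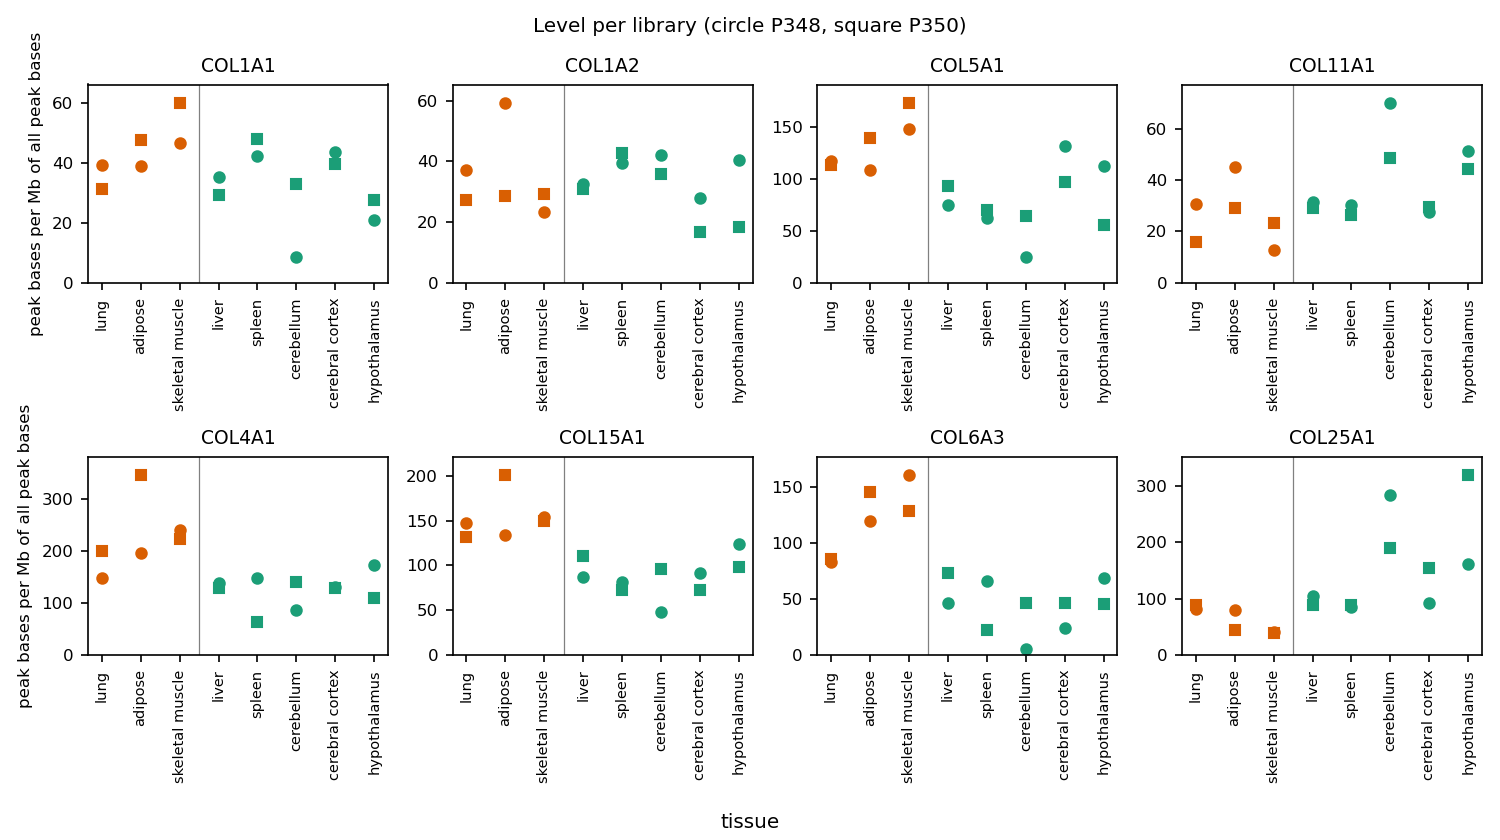
Level of 8 collagen genes in each library, in peak bases per Mb of all peak bases, by tissue on the horizontal axis, with circles for P348 and squares for P350 (orange for lung, adipose and skeletal muscle, green for the other tissues). The 6 orange points of COL15A1 and of COL6A3 lie above all 10 green ones, while those of COL1A1 and COL1A2 are mixed with them.

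Of the 6 basement membrane genes 2 were called, both higher, and their median log2 difference was 0.39. That median was 0.28 in P348 and 0.50 in P350, against 0.39 and 0.23 for the other collagens, so that the order of these classes turned between the animals. COL15A1, whose product lies at the outer face of basement membranes, had levels of 147 and 131 in lung, 134 and 201 in adipose and 154 and 150 in skeletal muscle of P348 and P350. All 10 others were lower, at 86.6 and 111 in liver, 81.9 and 72.5 in spleen, 48.1 and 95.7 in cerebellum, 90.9 and 72.0 in cortex and 124 and 97.7 in hypothalamus. Its means of 153 ± 25.4 (SD, n = 6) and 88.0 ± 21.4 (SD, n = 10) differed by 0.79 on the log2 scale with an SE of 0.17 and an adjusted p of 0.0059. COL15A1 and COL6A3 were the 2 of 40 genes whose libraries did not overlap in the higher direction, beside 0.256% of all genes, and 0 did in the lower direction, beside 0.0654%.

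COL4A1, a chain of the type IV network found in nearly every basement membrane, lay at 147 and 199 in lung, 195 and 346 in adipose and 240 and 223 in skeletal muscle. It lay at 139 and 128 in liver, 147 and 63.2 in spleen, 85.4 and 139 in cerebellum, 129 and 128 in cortex and 172 and 110 in hypothalamus. The adipose library of P350 was the highest by far, and spleen of P348 and hypothalamus of P348 reached the level of lung. The log2 difference was 0.83 with an SE of 0.21 and an adjusted p of 0.012.

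COL4A2 encodes the second chain of the same network and is transcribed away from COL4A1 from a shared start region, the annotated genes overlapping by 525 bp. Its level was 187 and 183 in lung, 175 and 225 in adipose, 199 and 260 in skeletal muscle, 167 and 134 in liver, 178 and 137 in spleen, 63.7 and 143 in cerebellum, 187 and 182 in cortex and 233 and 140 in hypothalamus. The log2 difference of 0.43 with an SE of 0.19 did not pass, with an adjusted p of 0.11. The windows of the pair share their 10 kb flanks, so their values are not separate observations. COL4A3 and COL4A4, chains of the basement membranes of glomerulus and lung alveolus, overlap by 663 bp in the same manner. Skeletal muscle had 37.5 and 23.3 at COL4A4, below every other library of that gene, whereas its 64.8 and 70.3 at COL4A3 lay among the rest. COL18A1, the source of endostatin, had a difference of 0.35 with an adjusted p of 0.33.

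The largest differences lay among the other collagens, of which 4 were higher and 3 lower of 23. COL6A3, a chain of the beaded filaments that surround muscle fibres and fat cells, lies on chromosome 15 from 137011549 to 137103687. Its level was 83.0 and 85.1 in lung, 120 and 145 in adipose and 161 and 128 in skeletal muscle of P348 and P350. It was 46.0 and 72.8 in liver, 65.6 and 22.1 in spleen, 5.52 and 46.7 in cerebellum, 23.7 and 46.4 in cortex and 68.7 and 45.5 in hypothalamus. All 6 libraries of the first group were above all 10 of the second, with means of 120 ± 31.5 (SD, n = 6) and 44.3 ± 21.9 (SD, n = 10). The log2 difference was 1.5 with an SE of 0.32 and an adjusted p of 0.0053, and 1.27 without the cerebellum library of P348. The COL6A3 window held 12 to 22 peaks in the first group and 2 to 12 in the second. These numbers were not scaled to the length of the lists, and the ranges met at 12.

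COL6A3 also had a peak within 2 kb of its start in 6 of 6 libraries of the first group and 5 of 10 of the second. The 250 bases before its start (chr15:137103688-137103937, minus strand, RefSeq annotation of Sscrofa11.1) are shown beside those of COL1A2 (chr9:74174234-74174483, plus strand), whose start had a peak in all 16 libraries. Capitals mark the TATA box (TATAAA), bound by the general transcription machinery, the CCAAT box of NF-Y and the GC box (GGGCGG) of Sp1, each on either strand.
COL6A3: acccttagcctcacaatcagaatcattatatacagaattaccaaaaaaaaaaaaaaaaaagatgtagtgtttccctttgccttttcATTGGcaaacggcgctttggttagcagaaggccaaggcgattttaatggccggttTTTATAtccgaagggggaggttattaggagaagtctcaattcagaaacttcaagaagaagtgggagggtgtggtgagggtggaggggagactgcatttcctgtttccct
COL1A2: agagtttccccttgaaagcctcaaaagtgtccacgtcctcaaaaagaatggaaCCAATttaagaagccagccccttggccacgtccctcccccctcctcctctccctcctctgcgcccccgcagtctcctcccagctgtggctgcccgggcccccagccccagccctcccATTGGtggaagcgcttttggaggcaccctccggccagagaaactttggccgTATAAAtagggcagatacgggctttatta
Both hold TATAAA, which 5 of 40 collagen promoters and 9.46% of 18724 promoters had in these 250 bases (in COL6A3 on the opposite strand). CCAAT was present in 17 of 40 and in 31.5% of all, and GGGCGG in 18 of 40 and in 47.0%. A match is a description of letters and not a site.

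**Figure D3:**
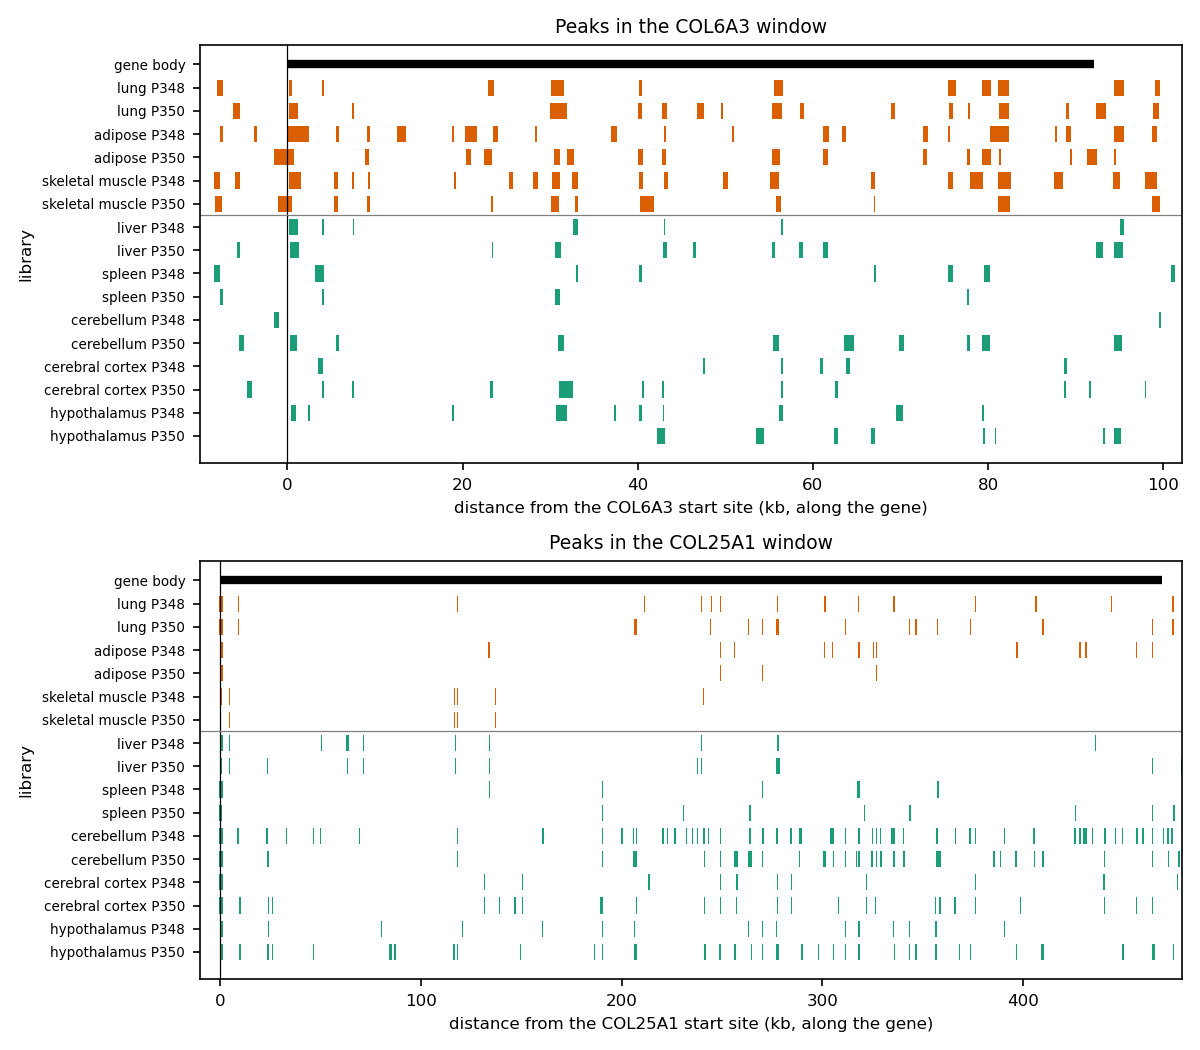
Peaks of each library (bars, to scale) along the windows of COL6A3 and COL25A1, by distance from the start site in kb, with the gene body as a black line; orange bars belong to lung, adipose and skeletal muscle and green bars to the other tissues. COL6A3 has 12 to 22 peaks in the orange rows and 2 to 12 in the green ones, and the cerebellum rows of COL25A1 hold 63 and 41 peaks against 8 and 6 in skeletal muscle.

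COL21A1, a FACIT of vessel walls, was highest in adipose, with 189 and 155, and had 74.9 and 69.0 in lung and 45.0 and 80.2 in skeletal muscle. The other tissues ranged from 5.73 to 84.4, and the log2 difference was 1.17 with an SE of 0.26 and an adjusted p of 0.0065. COL20A1, a FACIT with a small window and few peaks, ranged from 6.14 to 53.9 against 2.06 to 12.8, with a difference of 0.98 and an adjusted p of 0.017. COL8A2, a network collagen of the corneal endothelium, ranged from 42.2 to 105 against 12.6 to 59.3, with a difference of 0.93 and an adjusted p of 0.0097. Both ranges overlapped. COL20A1 lost its call in several settings, among them windows of 2 kb, lists of equal length, centring on the library median and leaving out the lung or the skeletal muscle library of P350. COL8A2 lost its call with windows of 2 kb, by number of peaks and without the brain tissues.

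COL25A1, a transmembrane collagen known from neurons and from the innervation of muscle, was the most strongly lower gene. Its level was 81.6 and 89.0 in lung, 79.2 and 43.3 in adipose and 40.4 and 39.2 in skeletal muscle. It was 104 and 89.0 in liver, 84.2 and 89.0 in spleen, 285 and 189 in cerebellum, 91.9 and 154 in cortex and 161 and 321 in hypothalamus. Cerebellum and hypothalamus stood above all other tissues, and liver and spleen were close to lung. The log2 difference was -1.19 with an SE of 0.20 and an adjusted p of 0.0015.

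COL9A1, a FACIT of cartilage fibrils, had few peak bases in skeletal muscle, with 2.39 and 3.47, against 70.0 and 65.5 in lung and 21.2 and 48.4 in adipose. It had 64.1 and 59.0 in liver, 24.6 and 41.9 in spleen, 41.8 and 46.9 in cerebellum, 43.5 and 57.2 in cortex and 56.4 and 62.0 in hypothalamus. The combined difference of -0.94 with an SE of 0.17 and an adjusted p of 0.0028 thus joined tissues on both sides of 0: lung differed from the other 5 tissues by 0.45, adipose by -0.51 and skeletal muscle by -2.75. For COL6A5, a beaded filament chain with a combined difference of -0.98 and an adjusted p of 0.018, these values were -0.05, -0.90 and -2.0. Whether these differences between the 3 tissues exceed their error was not tested.

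The remaining 16 genes of the other class did not pass. COL17A1 of hemidesmosomes, COL26A1, COL9A3, COL13A1, COL23A1, COL16A1, COL7A1, COL8A1, COL10A1 and COL6A6 had log2 differences from 0.14 to 0.85. COL9A2, COL22A1, COL14A1, COL12A1, COL28A1 and COL19A1 had values from -0.36 to -0.01.

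**Figure D4:**
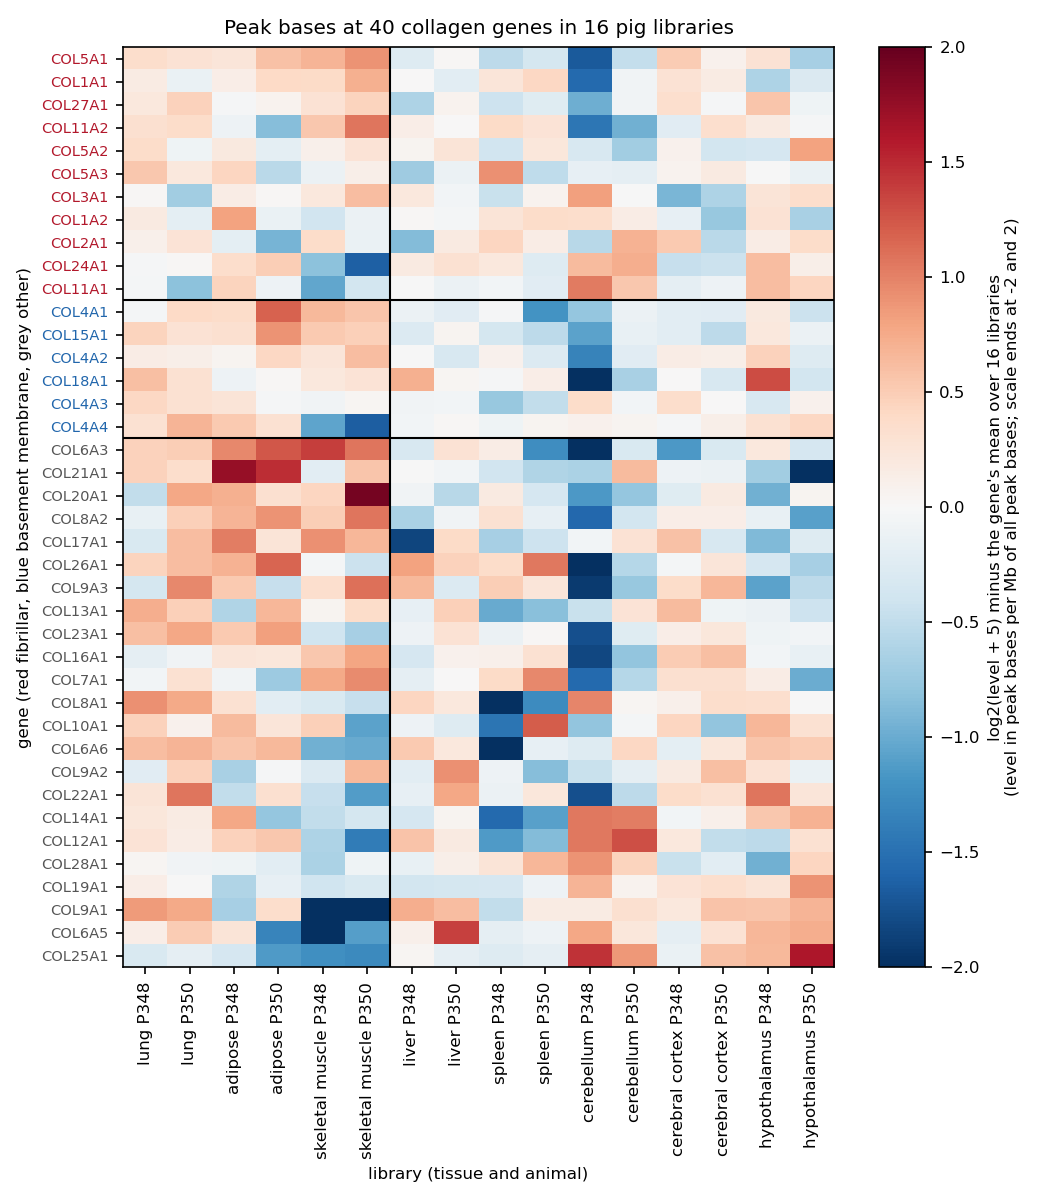
Level of the 40 collagen genes (rows) in the 16 libraries (columns), as log2(level + 5) minus the gene's mean over all libraries, with class by label colour and lines between classes and between the 6 and 10 libraries. The skeletal muscle columns are blue at COL9A1, COL6A5, COL25A1, COL4A4 and COL24A1, and the cerebellum column of P348 holds the lowest value of 16 genes.

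Lung, adipose and skeletal muscle were also compared singly. They share the other 5 tissues as their comparison, so their values are given side by side only, and no difference between them was tested. In skeletal muscle alone, 9 genes were higher (COL5A1, COL11A2, COL4A1, COL15A1, COL6A3, COL20A1, COL8A2, COL7A1 and COL16A1), beside 32.5% of all genes, and 7 were lower (COL11A1, COL24A1, COL4A4, COL9A1, COL6A5, COL25A1 and COL12A1), beside 13.5%. In adipose alone, 2 were higher (COL21A1 and COL15A1), beside 5.31%, and 1 was lower (COL25A1), beside 1.68%. With animal as a replicate block, 1 was higher and 1 lower in adipose, and the share of all genes called there is not given. In lung alone limma called 0 higher, beside 0.0327%, and 0 lower, beside 0.0109%. At an unadjusted p below 0.05 it had 6 higher, beside 7.35% of all genes, and 2 lower, beside 4.81%. The median log2 difference of the 40 genes was 0.44 in lung, 0.23 in adipose and 0.13 in skeletal muscle, and that of all genes was 0.04, 0.23 and 0.38. In lung 33 of 40 collagen genes lay above 0. The share of all genes above 0 in lung is not given here.

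Lung was the tissue with the highest mean level at 9 of 40 collagen genes, beside 3.95% of all genes, and the lowest at 0, beside 4.38%. Collagen genes are long, with a median window of 160 kb against 41.5 kb for all genes, and among the 6474 other genes with windows at least as long as the lower quartile of the collagen windows, 4.12% were highest in lung and the median lung difference was 0.05. Skeletal muscle was highest at 12 (beside 34.1%), adipose at 5 (12.7%), cerebellum at 6 (8.51%), hypothalamus at 5 (4.51%), liver at 2 (7.87%), spleen at 1 (22.6%) and cortex at 0 (5.70%). Cerebellum was lowest at 18 (62.2%), skeletal muscle at 8 (16.4%) and spleen at 7 (4.08%), the 7 of 40 being 17.5%. The 9 with their maximum in lung were COL5A3, COL4A3, COL4A4, COL13A1, COL23A1, COL8A1, COL6A6, COL22A1 and COL9A1.

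Most collagen start sites had a peak in most libraries. A peak within 2 kb of an annotated start was present in all 16 libraries for 14 of 40 genes, beside 58.0% of all genes, and in none for 1, COL10A1 of hypertrophic cartilage, beside 5.70%. The share of libraries with such a peak was 82.5% in lung, adipose and skeletal muscle and 76.3% in the other tissues over the 40 genes, against 80.1% and 78.4% over all genes. The collagen difference of 6.25 percentage points was smaller than its SD between the animals, 7.90. By class the shares were 87.9% and 84.6% for fibrillar, 100% and 93.3% for basement membrane and 75.4% and 67.8% for other collagens. In the basement membrane class, COL4A1 shares its start site peaks with COL4A2, and COL4A3 with COL4A4, so the same peaks count for both genes. The pair COL4A1 and COL4A2 lacked a peak in cerebellum of P348 only.

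A start site peak was more frequent by at least 50 percentage points at 3 genes, COL6A3, COL20A1 and COL7A1, beside 1.77% of all genes, and less frequent at 0, beside 0.545%. None of the 3 was among the genes so counted with peaks of q below 0.0001, which were COL15A1 and COL21A1, or with lists of equal length, which were COL22A1 and COL3A1. COL7A1 had one in both lung libraries and in skeletal muscle of P348, and in 0 of 10 others. COL20A1 had one in 4 of 6 and 1 of 10. COL3A1 had one in 3 of 6 libraries, adipose of P348 and both of skeletal muscle, and in 1 of 10. COL9A3 went the other way, with 0 of 6 and 4 of 10, both of liver and both of cortex. COL9A1 had one in 14 libraries and lacked it in skeletal muscle of both animals, where its level was lowest. COL17A1 had one in adipose of P348 only among 16 libraries, and COL28A1 in lung and adipose of P348 only.

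**Figure D5:**
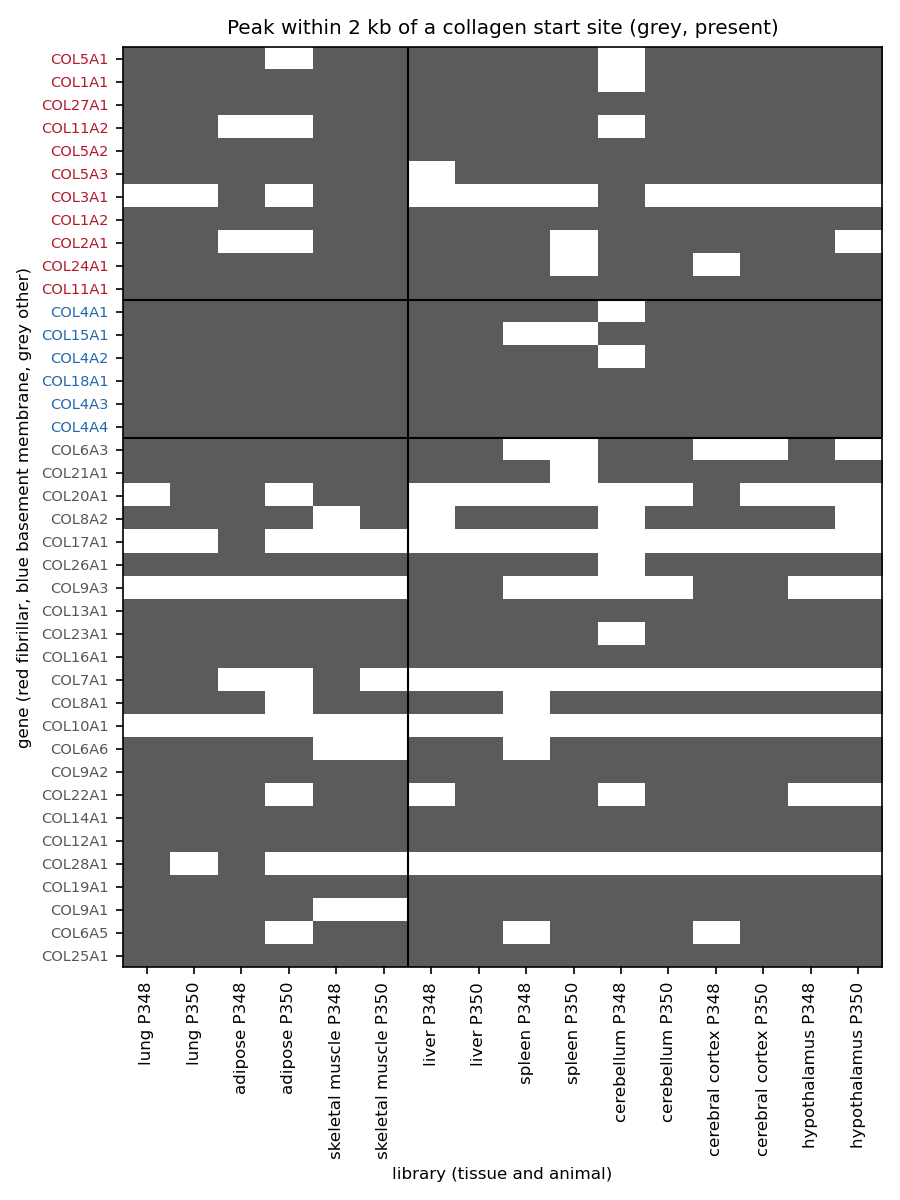
Presence (grey) or absence (white) of a peak within 2 kb of an annotated start for the 40 collagen genes (rows) in 16 libraries (columns), with lines between classes and between the 6 and 10 libraries. Of the 40 rows, 14 are grey throughout, and the cerebellum column of P348 has the fewest grey cells, 25.

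Within the collagen windows, merging of overlapping peaks gave 1656 regions, of which 852 were open, with a peak in both animals, in at least 1 tissue. Of these, 200 (23.5%) were open only in lung, adipose or skeletal muscle, beside 21.8% of regions in all gene windows, and 265 (31.1%) only in the other tissues, beside 32.1%. Regions open in all 8 tissues were 37 (4.34%), beside 8.34%, and those open in all 3 tissues and none of the other 5 were 6 (0.704%), beside 0.540%. Most regions were intronic, 991 of 1656, with 423 exonic, 70 TSS proximal and 172 in the flanks.

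In the higher direction, the regions with the largest difference in libraries of each class, ties by fold enrichment, were intronic in COL5A2 and COL4A1 and exonic in COL16A1. That of COL5A2, which encodes a partner chain of COL5A1, lies 77969 bp from the nearest annotated start (chr15:93900908-93903155). It had a peak in 6 of 6 libraries, with fold enrichments listed at 7.34 and 8.03 in lung, 3.75 and 2.87 in adipose and 7.47 and 7.45 in skeletal muscle, and in 1 of 10 others, liver of P350 at 2.66. The level of COL5A2 as a whole did not differ, at 0.17 with an adjusted p of 0.52. The COL4A1 region (chr11:76949060-76951002) had a peak in 6 of 6 libraries at 2.43 to 5.11 and in both cerebellum libraries at 2.45 and 2.78. The COL16A1 region (chr6:88205519-88206403) had one in 5 of 6 at 3.14 to 4.80, adipose of P350 lacking it, and in liver of P350 at 3.27. COL16A1 encodes a FACIT of skin and other tissues.

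The opposite pattern was seen at COL11A1, in a region singled out after its values were seen (chr4:115758724-115759707, which overlaps an exon). It had a peak in 0 of 6 libraries and in 9 of 10 others, at fold enrichments from 3.61 to 5.68, hypothalamus of P348 lacking it. The 300 bases around the middle of the stretch shared by most libraries are given for these 4 regions, on the plus strand of Sscrofa11.1, to show the sequence behind a contrast between the tissue groups. Other regions differed by as much as that of COL16A1 or more, such as those in COL27A1, COL5A1 and COL15A1 with a peak in 6 of 6 and 2 of 10 libraries and 1 in COL22A1 with 1 of 6 and 9 of 10. Capitals mark the letters TGANTCA of AP-1 factors (N is any base), GGAATG of TEAD factors and CAGCTG of E box proteins, each on either strand.
COL5A2: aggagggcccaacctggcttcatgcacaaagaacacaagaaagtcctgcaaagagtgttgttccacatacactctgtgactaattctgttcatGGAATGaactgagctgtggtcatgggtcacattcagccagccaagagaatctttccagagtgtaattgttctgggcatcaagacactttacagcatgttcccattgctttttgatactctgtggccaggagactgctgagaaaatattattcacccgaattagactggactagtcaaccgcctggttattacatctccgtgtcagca
COL4A1: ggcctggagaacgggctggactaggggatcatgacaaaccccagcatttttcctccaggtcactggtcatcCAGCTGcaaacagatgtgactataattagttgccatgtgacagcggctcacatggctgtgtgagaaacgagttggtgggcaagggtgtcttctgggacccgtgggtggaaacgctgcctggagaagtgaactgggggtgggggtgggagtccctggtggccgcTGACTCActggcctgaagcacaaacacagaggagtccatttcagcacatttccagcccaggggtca
COL16A1: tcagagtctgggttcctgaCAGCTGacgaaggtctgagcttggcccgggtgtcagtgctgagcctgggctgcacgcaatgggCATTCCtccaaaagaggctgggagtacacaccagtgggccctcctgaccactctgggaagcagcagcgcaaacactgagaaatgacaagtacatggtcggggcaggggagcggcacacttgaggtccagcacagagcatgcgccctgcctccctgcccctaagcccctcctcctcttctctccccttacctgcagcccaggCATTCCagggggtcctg
COL11A1: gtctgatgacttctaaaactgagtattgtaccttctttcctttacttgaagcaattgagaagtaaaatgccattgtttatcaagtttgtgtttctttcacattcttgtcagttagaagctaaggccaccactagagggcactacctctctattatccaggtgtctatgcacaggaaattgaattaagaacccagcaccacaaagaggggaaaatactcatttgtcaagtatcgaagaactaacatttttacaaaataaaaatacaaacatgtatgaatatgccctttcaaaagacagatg
The COL5A2 stretch (chr15:93900984-93901283) holds 1 GGAATG. The COL16A1 stretch (chr6:88205606-88205905), which includes 29 coding bases, holds 2 of them and 1 E box, and the COL4A1 stretch (chr11:76949662-76949961) holds 1 AP-1 motif and 1 E box. The COL11A1 stretch (chr4:115758729-115759028) holds none of these letters. Among collagen regions open only in lung, adipose or skeletal muscle, 14% held the AP-1 motif, 17.5% the TEAD motif and 31% the E box, against 12.7%, 17% and 27% of such regions in all gene windows. Among those open only in the other tissues the shares were 10.2%, 15.5% and 19.6%, against 11.6%, 15.4% and 23.2%. These shares are descriptions, and no match says only that the letters are not in the window.

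Genes of collagen processing and of the partners of collagens were called in both directions. Over 4 lists with 63 genes tested, 20 were higher and 4 lower in lung, adipose and skeletal muscle, beside the 20% and 7.16% of all genes. Of 21 genes of chain modification and secretion, 6 were higher, among them SERPINH1, the collagen chaperone of the endoplasmic reticulum, with a log2 difference of 0.92 and an adjusted p of 0.0047, and P4HA3, a prolyl hydroxylase subunit, with 0.79 and 0.013. The 1 lower was P3H2, a prolyl 3-hydroxylase, with -0.52 and 0.043. Of 17 genes of maturation and cross-linking, 5 were higher, among them BMP1, the procollagen C-proteinase, with 0.95 and 0.0019, and LOXL2, a lysyl oxidase, with 0.81 and 0.0071. BMP1 had a mean level of 156 in skeletal muscle, against 68.1 in lung and 65.9 in adipose, both below liver at 76.85. The 1 lower was ADAMTS3, a procollagen N-proteinase, with -0.68 and 0.0081. Its mean level was 110.7 in lung, 81.0 in adipose and 40.5 in skeletal muscle. Lung lay above liver at 101.1, cortex at 91.3 and spleen at 67.4, and below cerebellum at 190 and hypothalamus at 185.

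The partners of the basement membrane had the most calls, 8 higher and 1 lower of 16, with a median log2 difference of 0.46. HSPG2, the gene of perlecan, had means of 193 ± 59.1 (SD, n = 6) and 83.5 ± 29.1 (SD, n = 10), a difference of 1.22 and an adjusted p of 0.00029. LAMC1, a laminin chain of most basement membranes, had 1.27 and 0.0034, and NID1, nidogen, had 0.52 and 0.021. The mean level of LAMC1 was 310 in skeletal muscle, 122 in adipose and 67.8 in lung, the last below cortex at 93.6 and hypothalamus at 84.0. That of NID1 was 169 in adipose, 83.2 in lung and 87.0 in skeletal muscle, the last 2 below liver at 110.6. LAMA1, a laminin chain of early embryonic and brain surface membranes, was lower with -0.63 and 0.020, with mean levels of 102 in lung, 109.6 in adipose and 17.2 in skeletal muscle against 93.9 in the other tissues. Of 9 collagen receptors, DDR1 was higher (0.50, adjusted p 0.015) and ITGA1 lower (-0.67, adjusted p 0.0082). The mean level of DDR1 was 53.95 in skeletal muscle, 25.3 in adipose and 19.4 in lung, against 20.2 in the other tissues.

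The genes most like COL1A1 over the 8 tissue means were CDK12, NCL, KLHDC4, FBXO42 and TM4SF19, with Pearson correlations from 0.990 to 0.992. Among the collagens, COL9A3 (0.94), COL8A2 (0.92) and COL16A1 (0.91) were closest and COL25A1 (-0.90) farthest. These correlations are descriptions over 8 points from shared libraries.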

How the data were processed

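Nuclei of 8 tissues of 2 pigs were profiled by ATAC-seq, and 16 peak lists, 1 per library, were analysed. Per the study's methods, the steps described for ChIP-seq were adapter removal (Trim Galore 0.4.5), alignment (BWA 0.7.17), a filter on mapping quality (SAMtools 1.10) and removal of duplicates (Picard 2.18.17), and broad peaks were called with MACS2 at a q-value of 0.05. Whether ATAC-seq read ends were shifted is not given in the sources used here. Longer fragments or deeper libraries can give longer lists, and the lists carry no read depth and the study's read numbers were not used here, so no interval based on counts is given. The deposited fold enrichment is a ratio of signal to background averaged over a peak, and its deposited −log10 values (of p-value and of q-value) were used only to rank or filter peaks. The cattle lists were not used here.

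Samples were grouped by the tissue in their labels, with the animal as replicate. The members and lists were chosen with earlier results of these data known. Gene positions came from the RefSeq annotation of Sscrofa11.1, the build of the peaks. The study used another annotation. Levels were tested as log2(level + 5), which understates the change of low genes, with limma 3.58.1 in R 4.3.3, with 1 mean per tissue and Benjamini-Hochberg adjustment over all genes with peak bases in at least 2 libraries. P-values measure only the spread between these 2 littermates. The animals' names pair samples across tissues, since each gave all 8; the deviations of same-animal libraries correlated by -0.01 on average over 28 pairs of tissues (-0.23 to 0.16). Collagen genes with values in every library were the 3 of each class with the lowest adjusted p and COL1A1, COL1A2, COL3A1, COL4A1, COL4A2, COL2A1 and COL6A3, and every member was named. The motifs were chosen after the regions were seen. Named regions were those with the largest difference in the share of libraries, ties by fold. Promoters and regions were read from the Sscrofa11.1 sequence with pysam 0.24.0. No 2 lists were equal in length, and no list held overlapping peaks. Other windows, pseudocounts, filters, scalings and omissions were tried. A mean-variance trend and leaving out each library were chosen after seeing the data.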

Additional observations from a re-analysis of the deposited data

Results flagged for a closer look

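The adipose library of P350 stood apart from the other 5 libraries of lung, adipose and skeletal muscle in 2 of 8 sets of library totals examined. A start site peak was found at 27 collagen genes in that library, and the next lowest had 33. The summed level of the 6 basement membrane genes was 1007 peak bases per Mb, and the next highest was 810.8. In both cases the gap to the nearest library exceeded Dixon's 95% critical value for 6 values, and chance alone flags about 1 in 20 such sets. Without that library, 7 collagen genes were called higher, beside 12.3% of all genes, and 2 lower, beside 5.07%. The lower calls of COL11A1 and COL6A5 were lost.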

How the results depend on the processing

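With animal as a replicate block, 7 collagen genes were called higher (18.5% of all genes) and 4 lower (6.89%), the same collagen counts as without it. The block changed 1 count, that of genes higher in adipose alone, from 2 to 1. With 1 animal per tissue or tissues as the unit limma called 0 in either direction, as it did of all 18340 genes. Higher calls in lung, adipose and skeletal muscle numbered 13 with windows of 50 kb (34.7% of all genes), 2 with peaks of q below 0.0001 (6.48%) and 1 without skeletal muscle (2.52%). Lower calls numbered 2 by number of peaks (6.68%), 7 after centring on the library median (12.9%) and 0 without skeletal muscle (0.791%) or without the brain tissues (4.72%). Leaving out 1 library gave 6 to 13 higher calls (11.0% to 29.3% of all genes) and 2 to 5 lower calls (4.63% to 8.10%). The 13 came without pig cerebellum replicate P350 (29.3% of all genes) and the 2 lower calls without pig adipose replicate P350 (5.07%). Class medians moved after centring to -0.0656 for fibrillar, 0.15 for basement membrane and 0.0309 for other collagens. With lists of equal length they were 0.57 for basement membrane and 0.05 for other collagens, which also gave -0.0184 with peaks of q below 0.0001 and 0.13 by number of peaks. Leaving out replicates moved the medians between 0.04 and 0.26 (fibrillar), 0.28 and 0.52 (basement membrane) and 0.17 and 0.39 (other), and the difference in start site share between 0.667 and 11.8 points. Genes whose 6 libraries all lay higher numbered 0 with windows of 2 kb (0.213% of all genes) or peaks of q below 0.0001 (0.158%). They also numbered 0 with equal lists (0.245%) or number of peaks (0.229%), and 1 with 50 kb (0.349%) or centring (0.251%). Such genes numbered 5 without lung (2.37%, with fewer libraries to separate) and 2 to 8 when replicates were left out (up to 3.74%). Genes with all lower numbered 1 with 50 kb (0.0382% of all genes), without lung (0.589%) or without spleen (0.207%). They numbered 0 to 1 when replicates were left out (up to 1.23%). In adipose alone a pseudocount of 1 gave 1 higher and 0 lower. The share of all genes called in adipose alone is not given for that pseudocount or for the block. Regions open in all 3 tissues and no other fell to 0 with peaks of q below 0.0001, beside 0.0917% of regions in all gene windows. Those open only in the 3 tissues numbered 316 of 1656 (19.1%, beside 19.3%) when 1 animal sufficed. With the q limit they numbered 104 of 330 (31.5%, beside 32.4%). Regions open in all 8 numbered 114 (6.88%, beside 8.82%) when 1 animal sufficed and 6 (1.82%, beside 6.96%) with the q limit.

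Fibrillar genes COL24A1, COL1A2, COL3A1 and COL2A1, not called in the main comparison, changed sign. COL24A1 had 0.17 with peaks of q below 0.0001 and was called lower with a pseudocount of 20 (adjusted p 0.027), windows of 2 kb (0.049), centring (0.011), no filter, a mean-variance trend, without lung, adipose or spleen, and in 2 of 16 omissions of 1 library. COL1A2 had -0.19 after centring and, when replicates were left out, ranged from -0.11 to 0.20, with -0.02 without pig lung replicate P348, -0.0004 without pig skeletal muscle replicate P350, -0.02 without pig cerebral cortex replicate P350 and -0.05 without pig hypothalamus replicate P350. COL3A1 had -0.27 with windows of 2 kb, -0.15 with peaks of q below 0.0001, -0.14 after centring and -0.0290 to 0.21 when replicates were left out. COL2A1 had 0.22 with peaks of q below 0.0001, 0.0668 by number of peaks and -0.43 to 0.16 when replicates were left out. The call of COL11A1 was lost in 12 of 16 omissions of 1 library, with an adjusted p of up to 0.14, while those of COL5A1, COL4A1, COL15A1, COL6A3, COL25A1 and COL9A1 held in all 16. The cause of these changes was not tested. The lists carry no read depth, which limits what an absent peak can show, and 2 littermates limit every test.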
